A study of Homo sapiens with 24 samples.

Results

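The FAT and Dachsous atypical cadherins are *FAT1*, *FAT2*, *FAT3*, *FAT4*, *DCHS1* and *DCHS2*, and with them goes *FJX1*, the human counterpart of the four-jointed kinase of flies. These 7 genes, of 18395 genes measured, were chosen as a family, and each was read by the probe set of highest mean that carried its symbol alone. Each had 1 such probe set. The family was chosen by the values of *FAT1* in the siRNA arrays, so its differences between FMR4 siRNA and CTRL siRNA are given as a description with no test for any member.

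HEK293T, a line that derives from human embryonic kidney, was transfected with FMR4 siRNA or with the scrambled CTRL siRNA (40 nM), or with the pcDNA3.1 plasmid carrying *FMR4* (FMR4 pcDNA3.1) or left empty (CTRL pcDNA3.1; 0.5 μg). *FMR4* is a long non-coding RNA transcribed antisense to *FMR1*, the gene of fragile X syndrome, and the design asks which genes respond when it is knocked down or overexpressed. RNA was taken 24 or 6 h later and hybridised to Affymetrix Human Gene ST arrays, 3 per condition and 24 in all, each holding 1 biological replicate pooled from 3 technical ones. The siRNA and the plasmid went in with different lipid reagents, no untransfected cells were analysed here, all arrays are of 1 cell line, and no probe set named *FMR4* was found, so the size of the knockdown and of the overexpression was not checked.

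FAT proteins are very large transmembrane proteins whose outer parts are long chains of cadherin repeats. In flies, Fat on one cell binds Dachsous on its neighbour, the Golgi kinase Four-jointed phosphorylates their cadherin repeats and so tunes the binding, and the pair feeds into planar cell polarity and into the Hippo pathway, which restrains growth through the coactivator Yorkie (YAP and TAZ in mammals). In mammals, Fat4 with Dchs1 is the closest counterpart of the fly pair and shapes kidney and brain, whereas FAT1 acts at cell contacts and on actin and is recurrently mutated in cancers.

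Expression is given as log2 of the array's normalized intensity, so a difference of 1 is a doubling. Values of different probe sets cannot be ranked against each other, and so each gene was set against a floor of 7.72, the 95th percentile of 429 olfactory receptor and keratin-associated protein genes, which a kidney-derived line is not known to use (their median was 5.33). *FAT1* (mean 9.88 over 24 arrays) lay above all of those genes, *FJX1* (9.38) above 99.8% of them and *FAT4* (7.78) just over the floor. *DCHS1* (7.43), *FAT3* (7.21), *FAT2* (5.82) and *DCHS2* (5.15) lay under the floor, above 93.7%, 93.2%, 67.6% and 40.3% of those genes, so their values may be background and small changes in them may not be seen. The HEK293T markers checked lay above the floor for 6 of 8 genes, the exceptions being *PAX2* (7.39) and *LHX1* (7.5). Of 16 measured markers of other cell types only *KRT14* (8.27) and *COL1A1* (8.31) did.

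Array medians ran between 7.43 and 7.53, and no 2 arrays were identical. The FMR4 siRNA 6 h replicate 3 stood apart, with a median correlation to the other arrays of its condition of 0.9908, the lowest of the 24. Values of FMR4 siRNA at 6 h are therefore also given without it for *FAT1*, *FAT4*, *FJX1* and *FAT3*.

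*FAT1* and *FJX1* are the members with the clearest signal for which a promoter sequence was at hand, and the 250 bases before their annotated start sites are shown for what lies upstream of the 2 genes. The *FAT1* stretch (78.0% GC) is the minus strand of chr4:186726697-186726946 and the *FJX1* stretch (70.4% GC) the plus strand of chr11:35618210-35618459, both from RefSeq on GRCh38.p14. The median over all such windows was 58.0% GC. RefSeq gives *FAT1* a second start further inside the gene, whose stretch (chr4:186723857-186724106, 74.0% GC) is not printed and holds no TGACGTCA. Capitals mark a cyclic AMP response element, TGACGTCA, in *FAT1* and an E-box, CACGTG, in *FJX1*.
FAT1: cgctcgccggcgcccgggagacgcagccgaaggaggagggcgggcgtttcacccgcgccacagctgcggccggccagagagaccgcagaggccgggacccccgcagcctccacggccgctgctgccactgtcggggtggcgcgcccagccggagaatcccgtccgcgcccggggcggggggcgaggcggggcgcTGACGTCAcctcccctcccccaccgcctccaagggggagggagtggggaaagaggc
FJX1: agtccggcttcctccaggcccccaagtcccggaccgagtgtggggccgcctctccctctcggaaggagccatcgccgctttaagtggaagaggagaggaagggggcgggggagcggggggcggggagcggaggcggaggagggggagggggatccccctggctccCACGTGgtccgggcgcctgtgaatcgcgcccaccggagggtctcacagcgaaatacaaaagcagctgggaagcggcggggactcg
The first letter of the *FAT1* element lies 56 bases before the outer start, and that of the *FJX1* E-box 85 bases before it. On either strand, TGACGTCA occurred in 1.65% and CACGTG in 6.34% of 35116 windows of 250 bases. Both printed stretches also held GGGCGG or its reverse, which 42.6% of windows do, and neither held GGAATG or its reverse, the core that TEAD factors of the Hippo pathway bind, which 11.9% do. The motifs were chosen with the sequences in view, and a match is a description only.

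*FAT1*, at chr4:186587794-186726696, was lower with FMR4 siRNA than in any other condition. At 24 h its level was 8.95, 9.04 and 8.78 with FMR4 siRNA, against 10.06, 9.99 and 10.07 with CTRL siRNA. All 3 FMR4 siRNA arrays lay below all 3 CTRL siRNA arrays by a wide margin. The mean was 8.92 ± 0.13 with FMR4 siRNA and 10.04 ± 0.04 with CTRL siRNA (SD, n = 3 each), a difference of -1.12 (SE 0.092) that leaves 0.461 of the CTRL siRNA level. In these pools of cells, fewer cells expressing a gene and less RNA per cell cannot be told apart.

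At 6 h *FAT1* stood at 9.47, 9.47 and 9.94 with FMR4 siRNA, against 10.32, 10.16 and 10.18 with CTRL siRNA. The groups did not overlap, as they did not for 5.6% of genes, but the array that stood apart lay nearest to CTRL siRNA. The difference was -0.59 (SE 0.092), and -0.75 without FMR4 siRNA 6 h replicate 3. Between the 2 times it widened by -0.52 (SE 0.131), and by -0.37 without that array.

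The plasmid arrays showed no such spread. *FAT1* was 10.04, 9.996 and 9.99 with FMR4 pcDNA3.1 at 24 h, against 10.13, 10.05 and 9.94 with CTRL pcDNA3.1. At 6 h it was 10.02, 10.08 and 10.13 with FMR4 pcDNA3.1, against 10.11, 10.06 and 10.07 with CTRL pcDNA3.1. The groups overlapped at both times. The difference was -0.03 at 24 h (95% interval -0.23 to 0.16, limma adjusted p = 0.999) and -0.0008 at 6 h (95% interval -0.19 to 0.19, adjusted p = 1).

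Across all 8 conditions the order of *FAT1* was CTRL siRNA 6 h (10.22 ± 0.09), CTRL pcDNA3.1 6 h (10.08 ± 0.03), FMR4 pcDNA3.1 6 h (10.08 ± 0.05), CTRL pcDNA3.1 24 h (10.04 ± 0.10), CTRL siRNA 24 h (10.04 ± 0.04), FMR4 pcDNA3.1 24 h (10.01 ± 0.03), FMR4 siRNA 6 h (9.62 ± 0.27) and FMR4 siRNA 24 h (8.92 ± 0.13; SD, n = 3 each). From the second to the sixth of these, neighbours overlapped array by array. The other 3 neighbouring pairs did not.

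**Figure D1:**
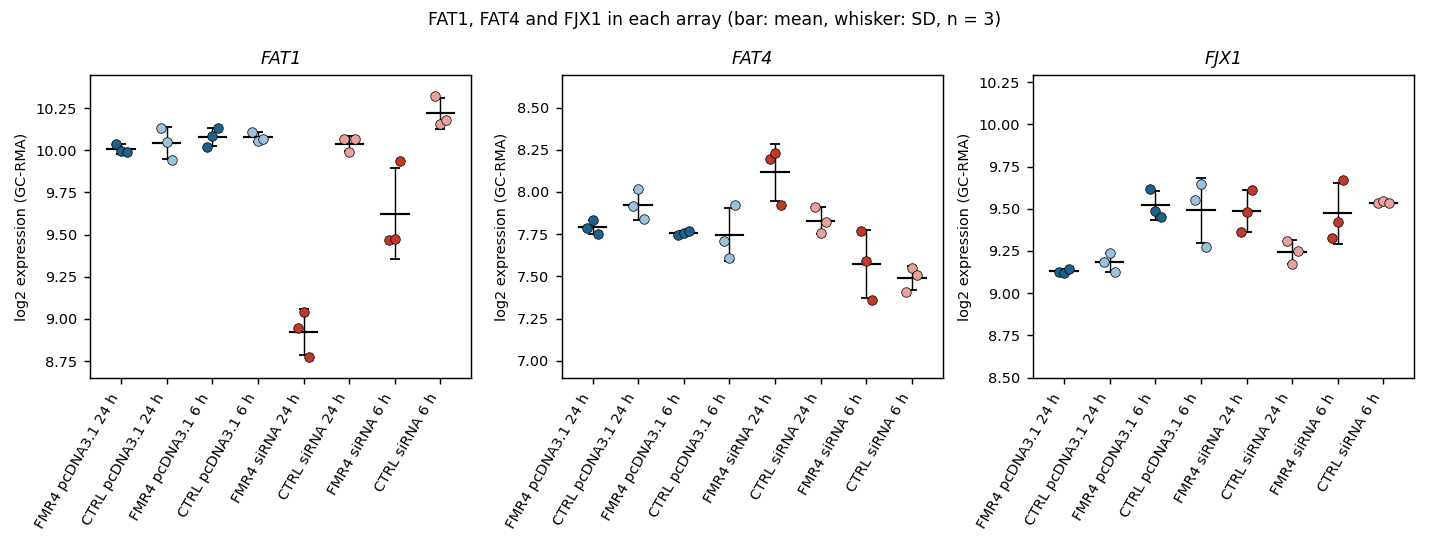
Log2 expression of *FAT1*, *FAT4* and *FJX1* in each of the 24 arrays, with all 3 panels spanning the same length of axis; points are arrays, horizontal bars the mean and whiskers the SD of 3 arrays. *FAT1* lay below 9.1 in the FMR4 siRNA 24 h arrays alone, *FAT4* had its highest mean there, and *FJX1* had its lowest means in the plasmid arrays of 24 h.

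*FAT4*, the counterpart of fly Fat, at chr4:125314955-125492932, lay higher, not lower, with FMR4 siRNA than with CTRL siRNA at 24 h. At 24 h it was 8.20, 8.23 and 7.92 with FMR4 siRNA, against 7.91, 7.75 and 7.82 with CTRL siRNA. The groups did not overlap, but the nearest arrays lay about 0.01 apart, and the difference was 0.29 (SE 0.093). The FMR4 siRNA arrays did overlap those of CTRL pcDNA3.1 at 24 h, which ran from 7.84 to 8.02. At 6 h *FAT4* was 7.77, 7.59 and 7.36 with FMR4 siRNA, against 7.41, 7.55 and 7.51 with CTRL siRNA. These overlapped, with a difference of 0.08 (SE 0.093), and 0.19 once FMR4 siRNA 6 h replicate 3 was dropped.

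*FAT4* in the plasmid arrays of 24 h was 7.79, 7.83 and 7.75 with FMR4 pcDNA3.1, against 7.92, 8.02 and 7.84 with CTRL pcDNA3.1. Here FMR4 pcDNA3.1 lay lower in every array, though by less than 0.01 at the nearest pair, and the difference of -0.13 did not pass the test (SE 0.093, adjusted p = 0.999). Arrays that do not overlap in that direction were found for 9.45% of genes in this comparison. At 6 h the values were 7.74, 7.75 and 7.77 with FMR4 pcDNA3.1, against 7.71, 7.61 and 7.92 with CTRL pcDNA3.1, a difference of 0.01 (adjusted p = 1).

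*FJX1*, the four-jointed kinase gene and itself a known target of YAP in cultured cells, lies at chr11:35618460-35620865. At 24 h it was 9.36, 9.48 and 9.61 with FMR4 siRNA, against 9.31, 9.17 and 9.25 with CTRL siRNA. The groups did not overlap and differed by 0.24 (SE 0.088). At 6 h it was 9.33, 9.42 and 9.67 with FMR4 siRNA, against 9.53, 9.54 and 9.53 with CTRL siRNA. There the FMR4 siRNA arrays lay on both sides of the tightly grouped CTRL siRNA arrays, with a difference of -0.06. Without replicate 3, the one array above them, it was -0.16.

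In the plasmid arrays *FJX1* did not part by *FMR4*. At 24 h it was 9.13, 9.12 and 9.14 with FMR4 pcDNA3.1, against 9.18, 9.24 and 9.13 with CTRL pcDNA3.1 (difference -0.05, adjusted p = 0.999). At 6 h it was 9.62, 9.49 and 9.45 with FMR4 pcDNA3.1, against 9.55, 9.65 and 9.28 with CTRL pcDNA3.1 (difference 0.03, adjusted p = 1). The groups overlapped at both times.

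The 4 members under the floor moved little with FMR4 siRNA. At 24 h the differences from CTRL siRNA were 0.12 for *DCHS1*, the Dachsous that pairs with FAT4, 0.11 for *FAT3*, -0.04 for *FAT2* and -0.09 for *DCHS2*, and at 6 h they lay between -0.10 and 0.08. All 4 overlapped between the groups at both times. The widest spread was in *FAT3* at 6 h, with 7.15, 6.99 and 7.58 in FMR4 siRNA arrays and 7.31, 7.34 and 7.37 in CTRL siRNA arrays, where the high value again came from replicate 3. The *FAT3* difference was -0.10 with that array and -0.27 without it. Between FMR4 pcDNA3.1 and CTRL pcDNA3.1 the 4 differed by -0.15 (*FAT2*) to 0.03 (*FAT3*) at 24 h and by -0.13 (*DCHS1*) to 0.01 (*DCHS2*) at 6 h, and none passed (adjusted p = 0.999 at 24 h and 1 at 6 h for each). Of these only *FAT2* at 24 h did not overlap between the groups. It lay lower with FMR4 pcDNA3.1, as 9.45% of genes did without overlap in that comparison.

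Counted over the family, 1 of 7 members, *FAT1*, lay past the adjusted threshold of 0.05 between FMR4 siRNA and CTRL siRNA at 24 h, where 5.89% of all genes did, and 1 of 7 at 6 h, where 0.0598% did. Without FMR4 siRNA 6 h replicate 3 it was 1 of 7 at 6 h too, beside 4.64% of genes. Since *FAT1* brought the family up, nothing is read from these counts. At 24 h 3 of 7 members did not overlap between the groups, against 22.2% of genes. For FMR4 pcDNA3.1 against CTRL pcDNA3.1 none of 7 passed at either time, where 0% of genes passed in limma (without adjustment, 602 genes had p under 0.05 at 24 h and 372 did at 6 h).

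**Figure D2:**
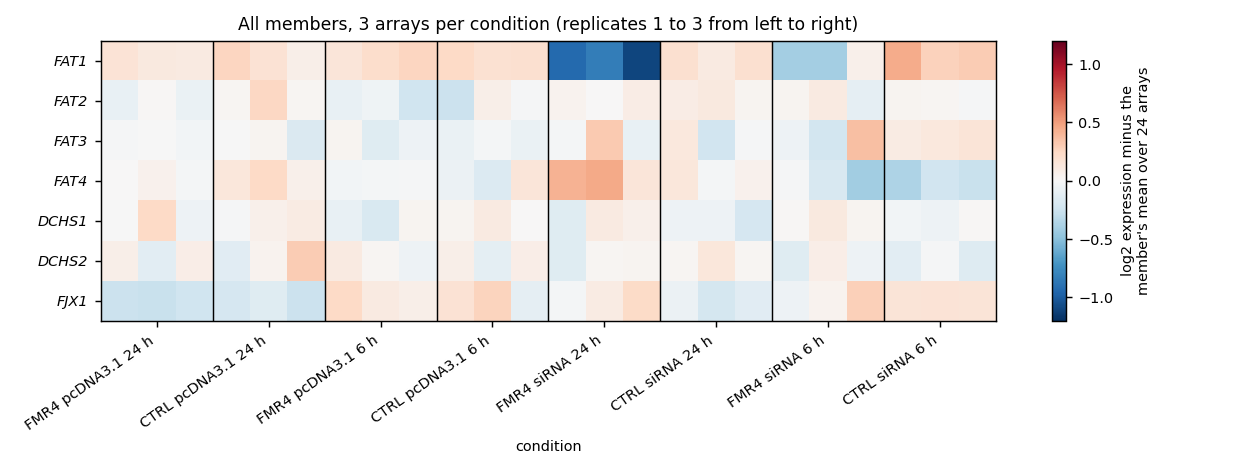
Log2 expression of the 7 members in 24 arrays, each as the difference from that member's own mean over all arrays, in blue where lower and red where higher; vertical lines part the 8 conditions. The one strong block is *FAT1* in FMR4 siRNA 24 h, with replicates 1 and 2 of FMR4 siRNA 6 h paler in the same direction and replicate 3 near the mean.

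*FAT4* and *FJX1* moved with time after transfection in arrays that hold no FMR4 siRNA. *FAT4* rose at 24 h relative to 6 h in CTRL siRNA cells by 0.34 (SE 0.093, limma adjusted p = 0.0137), and the 24 h arrays lay above the 6 h arrays. All 3 CTRL siRNA arrays of 6 h lay under the floor of 7.72, so the size of this rise is set against values that may be background. The difference was 0.04 in FMR4 pcDNA3.1 cells (adjusted p = 0.881) and 0.18 in CTRL pcDNA3.1 cells (adjusted p = 0.299). In FMR4 siRNA cells it was 0.54 (SE 0.093), and 0.44 without FMR4 siRNA 6 h replicate 3, given as a description. The rise in CTRL siRNA cells lost the threshold without CTRL siRNA 6 h replicate 1 (adjusted p = 0.0646), as it did when the first 24 h array of CTRL siRNA was left out (adjusted p = 0.0670).

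*FJX1* fell at 24 h relative to 6 h in all 3 of the other conditions: by 0.29 in CTRL siRNA cells (SE 0.088, adjusted p = 0.0231), by 0.39 in FMR4 pcDNA3.1 cells (SE 0.088, adjusted p = 0.00871) and by 0.31 in CTRL pcDNA3.1 cells (SE 0.088, adjusted p = 0.0376). The arrays of the 2 times did not overlap in any of these, as they did not in either direction for 37% of genes in CTRL siRNA cells, nor with 24 h lower for 17.6% in FMR4 pcDNA3.1 cells and 12% in CTRL pcDNA3.1 cells. In FMR4 siRNA cells the difference was 0.01 (SE 0.088), and FMR4 siRNA minus CTRL siRNA differed between the times by 0.31 (SE 0.124), again as a description. Leaving out FMR4 siRNA 6 h replicate 3 gave 0.11 and 0.41 for these. The calls outside FMR4 siRNA were narrow. In CTRL siRNA cells the call held in only 1 of 6 fits that each left out an array (without CTRL siRNA 24 h replicate 1), and adjusted p reached 0.0880 without CTRL siRNA 24 h replicate 2. In CTRL pcDNA3.1 cells it also held in 1 of 6 (without CTRL pcDNA3.1 6 h replicate 3), and adjusted p reached 0.168 without CTRL pcDNA3.1 6 h replicate 2. In FMR4 pcDNA3.1 cells it was lost without FMR4 pcDNA3.1 6 h replicate 1 alone (0.0578).

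*FAT1* itself passed no test of time outside FMR4 siRNA. Its 24 h minus 6 h difference was -0.18 in CTRL siRNA cells (adjusted p = 0.203), -0.07 in FMR4 pcDNA3.1 cells (adjusted p = 0.737) and -0.04 in CTRL pcDNA3.1 cells (adjusted p = 0.864), against -0.70 (SE 0.092, no test) in FMR4 siRNA cells and -0.55 there when FMR4 siRNA 6 h replicate 3 was dropped. Under array weights the CTRL siRNA difference was -0.19 and passed (adjusted p = 0.0275). The choice of the family by *FAT1* also used the CTRL siRNA arrays, so nothing is read from its p-values in those cells. Past the threshold were 2 of 7 members in CTRL siRNA cells (18.6% of genes), 1 of 7 in FMR4 pcDNA3.1 cells (6.33%), and 1 of 7 in CTRL pcDNA3.1 cells (5.76%). In FMR4 siRNA cells 2 of 7 lay past it, where 16.7% of genes did, a count from which nothing is read because those arrays brought the family up. *FAT2*, *FAT3*, *DCHS1* and *DCHS2* passed in none of the 4, though *FAT2* passed in CTRL pcDNA3.1 cells with array weights. The difference between times of FMR4 siRNA minus CTRL siRNA had 0 of 7 members past the threshold (1.19% of genes), and 2 of 7 without FMR4 siRNA 6 h replicate 3 (8.31%), again with nothing read from it. That of FMR4 pcDNA3.1 minus CTRL pcDNA3.1 had 0 of 7 (0%), and that of CTRL pcDNA3.1 minus CTRL siRNA had 0 of 7 (1.12%).

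The 2 kinds of control transfection were compared with each other as a background. None of 7 members passed between CTRL pcDNA3.1 and CTRL siRNA, at 24 h (4.49% of genes) or at 6 h (3.31%). *FAT1* differed by 0.003 at 24 h (adjusted p = 0.993) and by -0.14 at 6 h (adjusted p = 0.383). The CTRL siRNA arrays are among those whose *FAT1* values chose the family, so nothing is read from its p-values here. The largest difference was 0.26 for *FAT4* at 6 h (SE 0.093, adjusted p = 0.108), where the arrays did not overlap, as for 14.9% of genes in that direction. Against the 6 plasmid arrays of 24 h, which ran between 9.94 and 10.13, *FAT1* with FMR4 siRNA lay 1.10 lower and with CTRL siRNA 0.01 higher, given as values with no test.

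**Figure D3:**
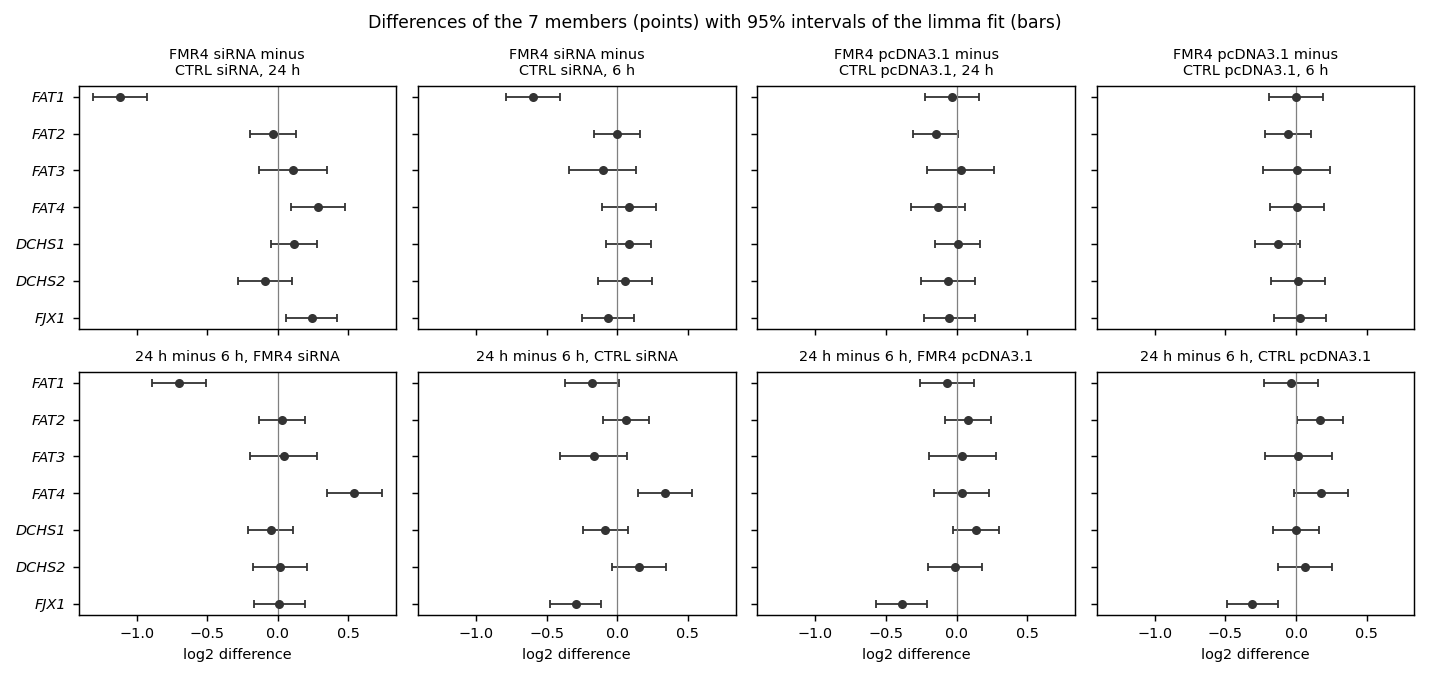
Log2 differences of the 7 members with 95% intervals from the limma fit, for *FMR4* against control in the upper row and 24 h against 6 h in the lower row. *FAT1* lies left of 0 in the panels that use FMR4 siRNA arrays. Its values in those arrays brought the family up, so the intervals there are a description and no test. In 24 h minus 6 h of CTRL siRNA cells *FAT4* lies right of 0 and *FJX1* left of it.

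The genes around the family were counted from lists of the pathway, with 1 probe set per gene. With FMR4 siRNA relative to CTRL siRNA at 24 h, 4 of 30 Hippo pathway genes rose and 2 fell, with a list median of 0.104 beside 0.004 over all genes, where 3.44% of genes rose and 2.45% fell. *LIMD1*, a LIM protein that restrains the LATS kinases, rose by 0.43 (SE 0.064, adjusted p = 9.89e-05). *TEAD1*, a DNA-binding partner of YAP, rose by 0.40 (adjusted p = 0.000367), and *VGLL4*, which competes with YAP for TEAD factors, rose by 0.38 (adjusted p = 0.000328). *MOB1A*, the scaffold that activates LATS kinases, fell by 0.64 (SE 0.096, adjusted p = 0.000106). These 4 passed in each of the 16 alternative fits, whereas *PTPN14* (0.25, adjusted p = 0.0288) and *YAP1* (-0.26, adjusted p = 0.0302) lost the threshold in 6 and 7 of them. *TEAD1* was also higher with CTRL pcDNA3.1 than with CTRL siRNA at 24 h, by 0.34 (adjusted p = 0.00421).

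Of 19 planar cell polarity genes measured, 3 rose and 1 fell in the same comparison, with a list median of 0.051, where 3.44% of all genes rose and 2.45% fell. The paired membrane proteins of the pathway went opposite ways. *VANGL2* rose by 0.39 (adjusted p = 0.00146) and *VANGL1* fell by 0.33 (adjusted p = 0.00298), both in each of the 16 alternative fits. *PRICKLE1*, their cytoplasmic partner (0.30, adjusted p = 0.0131), and *INTU*, a ciliary effector (0.33, adjusted p = 0.0184), each lost the threshold in 4 of them. *INTU* was also higher with CTRL pcDNA3.1 than with CTRL siRNA at 24 h, by 0.36 (adjusted p = 0.0152).

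Of 21 targets of YAP and TAZ, 2 rose and 1 fell, with a list median of 0.109, where 3.44% of all genes rose and 2.45% fell. The number of targets that rose ran from 0 to 3 over the alternative fits. *CRIM1*, a membrane protein that binds growth factors, fell by 0.44 (adjusted p = 0.00383), while *DOCK5* (0.24, adjusted p = 0.0420) and *PTPN14* were higher. *DOCK5* lost the threshold in 9 of the 16 alternative fits. The best known targets *CCN1* and *CCN2* did not pass. Of the other cadherins, 0 of 18 classical and type II cadherins and 0 of 15 other atypical cadherins passed, and among 7 desmosomal cadherins *DSC2* fell by 0.25 (adjusted p = 0.0196), a call lost when CTRL siRNA 24 h replicate 1, its replicate 2 or FMR4 siRNA 24 h replicate 3 was dropped (adjusted p up to 0.124). None of 7 catenins, 15 partners of FAT proteins or 5 kinases related to four-jointed passed. With FMR4 siRNA at 6 h no gene of these 9 lists passed, where 0.0598% of all genes did. With the FMR4 plasmid none passed at either time, where 0% of all genes did. The 6 h count with FMR4 siRNA rests on FMR4 siRNA 6 h replicate 3. Without that array 5 of 21 YAP and TAZ targets, 4 of 19 planar cell polarity genes, 2 of 30 Hippo genes and 1 gene each of 4 other lists fell at 6 h and none rose. In either direction 4.64% of all genes passed there. The share that fell is not given, so the direction cannot be set against all genes. Between the times, the FMR4 siRNA minus CTRL siRNA difference changed by 0.42 for *LIMD1* (adjusted p = 0.0194) and by -0.57 for *MOB1A* (adjusted p = 0.0390), calls that were lost in 5 and 11 of 21 alternative fits.

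**Figure D4:**
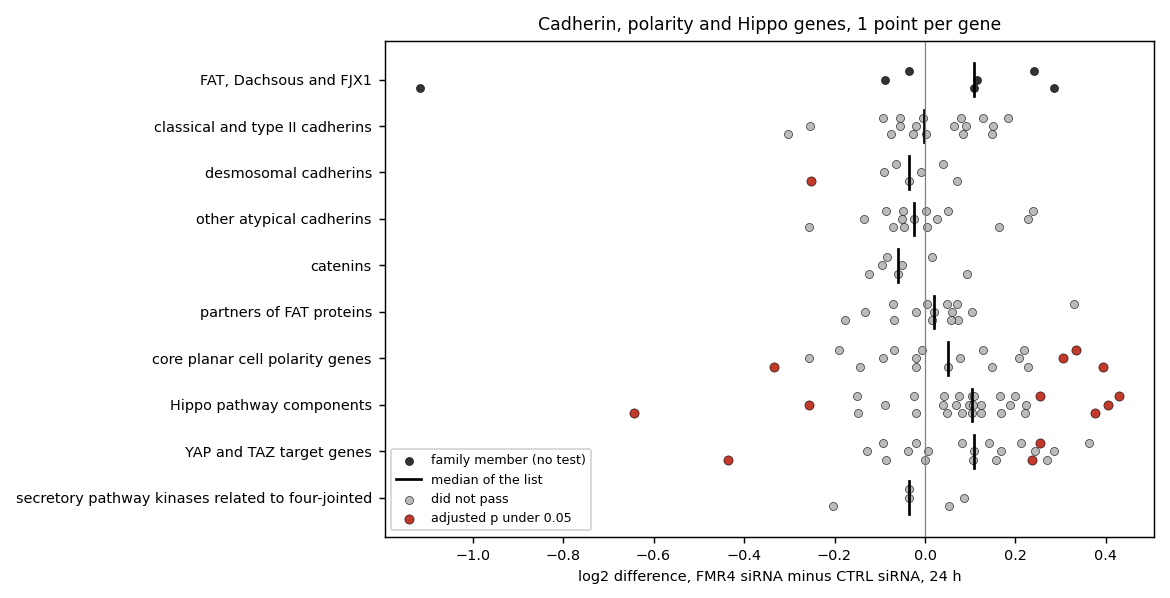
Log2 differences between FMR4 siRNA and CTRL siRNA at 24 h, 1 point per gene, for the family (dark, not tested) and for 9 lists of related genes, with red points past the adjusted threshold of 0.05 and a black line at each median. *FAT1*, at -1.12, brought the family up by its values in these arrays, so nothing is read from its distance to the lists. Among the 9 lists *MOB1A*, at -0.64, lies furthest from 0.

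At 24 h relative to 6 h in CTRL siRNA cells, 7 of 21 YAP and TAZ targets fell and 1 rose, and 8 of 30 Hippo genes fell and none rose, where 8.76% of genes fell and 9.8% rose. Over the alternative fits the number that fell ran from 3 to 9 for the targets and from 3 to 12 for the Hippo genes. *CCN2* fell by 2.01 (adjusted p = 0.000144) and *CCN1* fell by 1.53 (adjusted p = 0.000371). Both are secreted matricellular proteins that serum and attachment also induce. *CCN2* and *CCN1* also differed between CTRL pcDNA3.1 and CTRL siRNA at 6 h, by -1.62 (adjusted p = 0.0170) for *CCN2* and -1.17 (adjusted p = 0.0251) for *CCN1*, both lower with the plasmid. These calls were lost in 4 (*CCN2*) and 5 (*CCN1*) of 16 alternative fits. *FAM20C*, a Golgi kinase of secreted proteins, fell by 0.42 with time in CTRL siRNA cells (adjusted p = 0.00251), while 5 of 15 FAT partners rose, among them *ATN1*, the atrophin of humans, by 0.27 (adjusted p = 0.0171), and *APBB1* by 0.26 (adjusted p = 0.00635). The number of partners that rose ran from 0 to 5 over the alternative fits.

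With time in plasmid cells, 2 of 19 planar cell polarity genes rose in FMR4 pcDNA3.1 cells and 3 of 19 in CTRL pcDNA3.1 cells, and 1 of 30 Hippo genes fell in each, beside the 6.33% and 5.76% of genes that passed there in either direction. *VANGL2* rose by 0.41 in FMR4 pcDNA3.1 cells (adjusted p = 0.00188) and by 0.38 in CTRL pcDNA3.1 cells (adjusted p = 0.00364). *AMOT*, which holds YAP at junctions, fell by 0.33 (adjusted p = 0.00148) and by 0.27 (adjusted p = 0.00627) in the same cells. None of 21 YAP and TAZ targets passed in either. Over the alternative fits up to 5 fell in FMR4 pcDNA3.1 cells and up to 3 in CTRL pcDNA3.1 cells, and up to 1 rose in each. *FJX1*, which fell in both, was left out of that list. Of the 19 planar cell polarity genes, 4 rose and 1 fell with time in CTRL siRNA cells, where 18.6% of all genes passed in either direction. In FMR4 siRNA cells 9 rose and 0 fell, where 16.7% of all genes passed. Over the alternative fits the number that rose ran from 0 to 5 in CTRL siRNA cells and from 0 to 9 in FMR4 siRNA cells.

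The genes most like each member over the 24 arrays were read among 10368 genes above the floor. For *FAT1* they were *KMT5A*, a histone H4 methyltransferase (Pearson's r = 0.979), *MFAP3* (0.953), *PPP6R3* (0.947), *SUN1* (0.944) and *GOLM2* (0.943), and at the other end *UBE2Q2* (-0.832), *CACUL1* (-0.809), *CEBPB* (-0.807), *YPEL2* (-0.795) and *TULP3* (-0.791). The arrays share conditions, so these are descriptions. *KMT5A* differed between FMR4 siRNA and CTRL siRNA by -0.88 at 24 h and -0.44 at 6 h, and by -0.002 between FMR4 pcDNA3.1 and CTRL pcDNA3.1 at 24 h. Without the 6 FMR4 siRNA arrays r with *FAT1* over 18 arrays was 0.484 for *KMT5A*, 0.448 for *MFAP3*, 0.232 for *PPP6R3*, 0.701 for *SUN1* and 0.424 for *GOLM2*. At the other end it was 0.163 for *UBE2Q2*, 0.328 for *CACUL1*, -0.222 for *CEBPB*, -0.235 for *YPEL2* and -0.191 for *TULP3*.

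**Figure D5:**
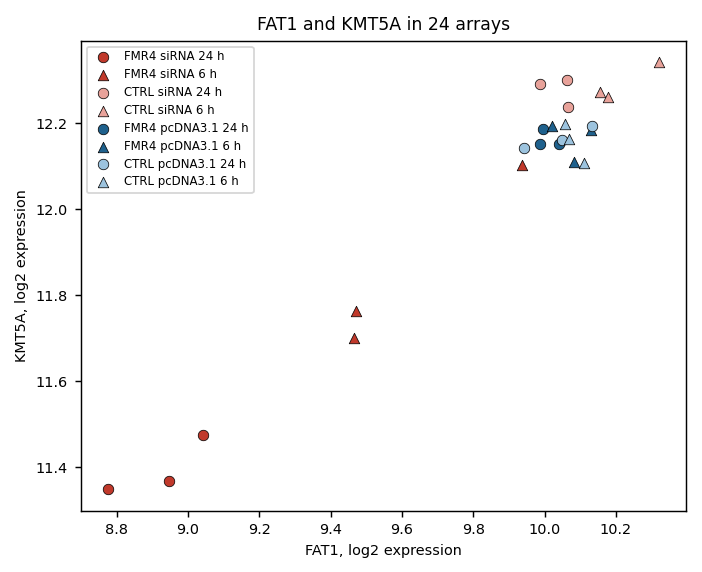
Log2 expression of *KMT5A* against *FAT1* in the 24 arrays, with circles for 24 h and triangles for 6 h. The 3 FMR4 siRNA 24 h arrays lie at the lower left, 2 FMR4 siRNA 6 h arrays between, and the other 19 arrays, among them FMR4 siRNA 6 h replicate 3, at the upper right.

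*FAT4* ran most like *ITGA6*, a laminin receptor subunit (r = 0.931), and *CALD1*, an actin-binding protein (r = 0.931), and without the FMR4 siRNA arrays the values were 0.843 and 0.913. *FJX1* ran most like *NDRG1*, a stress-induced gene (r = 0.911), and *PPRC1* (r = 0.890), and without those arrays the values were 0.919 and 0.902. Among members, r over 24 arrays was -0.54 between *FAT1* and *FAT4* and -0.41 between *FAT4* and *FJX1*. After each condition's mean was taken away it was -0.22 and -0.69, and 0.77 between *FAT1* and *FAT3*, a gene under the floor. In FMR4 siRNA 6 h, replicate 3, the array that stood apart, was the highest for *FAT1* (9.94), *FAT3* (7.58) and *FJX1* (9.67) and the lowest for *FAT4* (7.36). No r among members was computed without that array, so how far these values rest on it was not tested.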

How the data were processed

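Gene expression was measured on 24 arrays. The authors subtracted background and normalized with GC-RMA, and the deposited log2 values (2.62 to 14.5) were used as they are. Labels and methods name different versions of the array. Of 33297 probe sets, 21214 had a gene symbol and were tested. 1754 had several symbols and were not counted as genes. The 8 conditions were fitted together with limma 3.58.1 in R 4.3.3 (16 residual degrees of freedom, 22 after moderation). Each two-sided p was adjusted by Benjamini-Hochberg over all probe sets tested in a comparison, with a threshold of 0.05. The fit was tested on simulated data. p-values measure the spread between arrays, whose number limits the precision. Replicates were not paired.

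The members and lists were chosen with earlier results of these data known. All 7 members are named. Of each list the 3 genes of lowest adjusted p past the threshold may be named, or 5 for FMR4 siRNA against CTRL siRNA at 24 h, and for likeness to *FAT1* the 5 highest and 5 lowest r, or the 2 highest for other members above the floor. *YAP1* at 24 h, and *CCN1* and *CCN2* where they did not pass, were named after their values were seen. Alternatives were other sets of arrays, array weights, robust moderation with a trend, quantile normalization, median centring, all probe sets, the mean over probe sets, a floor, the replicate number as a block, and each array left out. Figures were drawn with matplotlib 3.10.9.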

Additional observations from a re-analysis of the deposited data

How the results depend on the processing

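Counts that use FMR4 siRNA arrays are descriptions from which nothing is read, because *FAT1* in those arrays brought the family up. For FMR4 siRNA minus CTRL siRNA at 24 h, 1 member lay past the threshold, as 5.89% of genes did. It was 3 in a fit to the 12 arrays of the time, 2 with array weights, 2 with probe sets above the floor and 1 to 2 with an array left out. The *FAT1* difference stayed between -1.18 and -1.04 throughout. At 6 h 1 passed, against 0 in fits to the 12 arrays or to the arrays compared, 0 with the replicate number as a block, and 0 to 1 with an array left out (0 without CTRL siRNA 6 h replicate 1 or FMR4 siRNA 6 h replicate 2). Between CTRL pcDNA3.1 and CTRL siRNA at 6 h, 0 passed and 1 with array weights (*FAT4*). For 24 h minus 6 h, 2 passed in FMR4 siRNA cells and 0 in a fit to the arrays compared. In CTRL siRNA cells 2 passed, against 3 with array weights and 0 to 1 with an array left out. In FMR4 pcDNA3.1 cells 1 passed, and 0 to 1 with an array left out. In CTRL pcDNA3.1 cells 1 passed, against 0 in a fit to the arrays compared, 2 with array weights, 0 with all probe sets, and 0 to 1 with an array left out. For the difference between times of FMR4 siRNA minus CTRL siRNA 0 passed, against 1 with each of trend and robust options, array weights, quantile normalization, median centring, the mean over probe sets and probe sets above the floor, and 0 to 2 with an array left out. The cause was not tested.

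No value changed sign past the threshold under any alternative. Same-numbered replicates deviated together (r over 0.1 for all 3 numbers) in 0 of 10 comparisons, with r from -0.379 to 0.475, so they were not treated as pairs, and beyond the change at 6 h the replicate block changed no count of members. With 3 arrays per condition and 4 members under the floor, small changes of those members would not be seen.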
